A study of Rattus norvegicus with 8 samples.

Results

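ATP-binding cassette (ABC) proteins are membrane pumps that use ATP to carry drugs, conjugates, sterols, lipids, peptides and metal complexes across membranes, and a few relatives work on ribosomes instead. The family was taken as every row of the deposited count table whose symbol begins with Abca to Abcg and a number, which gave 54 genes of the 29884 in the table. Of these, 44 had enough counts to be tested and 10 did not. The cervix came from wild-type Sprague-Dawley rats on gestational day 17, 12 hours after an intraperitoneal injection. The LPS group (4 libraries) received lipopolysaccharide, a glycolipid of Gram-negative bacteria, at 100 µg/kg, and the PBS group (4 libraries) the same volume of phosphate-buffered saline. The series' title presents the LPS animals as a model of preterm birth, and the comparison asks how the cervix responds to that stimulus. The labels do not say whether a library held 1 animal or several.

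In the rodent, the drug pump P-glycoprotein is encoded by a pair of close copies, Abcb1a and Abcb1b, where humans have a single gene. Abcb1b is known in the mouse for its high level in the epithelium of the pregnant uterus. Abcg5 and Abcg8 join into a single sterol exporter, best known from liver and intestine, and Abca1 and Abcg1 pass cholesterol to lipoproteins, much used by macrophages. Peptides reach the endoplasmic reticulum through Tap1 and Tap2, ABC proteins whose symbols lie outside the family's naming pattern.

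Library totals lay between 33191039 counts (PBS replicate 4) and 40634384 counts (PBS replicate 2), and 3 counts stood for 0.0734 to 0.0899 CPM. CPM is the count per 1e6 library counts, with library sizes scaled by TMM, edgeR's trimmed mean method. All levels are in TMM-scaled CPM and all fold changes are log2, LPS minus PBS, with a standard error (SE). The threshold for a call was 0.05 on the adjusted p (edgeR quasi-likelihood test, Benjamini-Hochberg over 16117 genes). Transcript lengths were not used, so levels are compared between libraries and not between genes. Markers of squamous epithelium, columnar epithelium, smooth muscle and fibroblasts were present in every library. Of 12 decidual and placental markers, 9 were below the filter, among them Prl8a2 with 0 counts and Prl3b1 and Tpbpa with means of at most 0.0568 CPM in either group. The 3 tested were Wnt4, Bmp2 and Cdkn1c, signalling and growth genes that other tissues also express. The summed level of the 12 was 157 to 204 CPM in PBS and 133 to 159 CPM in LPS, and Bmp2 was called lower (-0.94, adjusted p = 0.00979). In whole tissue, fewer cells of a type and less RNA per cell cannot be told apart.

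The family moved in both directions, and the share of it that moved was near that of the whole table. Of the 44 tested members 3 were higher and 6 were lower in LPS, against 9.49% and 7.45% of all tested genes, or 16.9% in either direction. The median log2 fold change was 0.10 over the members and 0.01 over all genes tested. Higher were Abcg5, Abca4 and Abcc1, and lower were Abcb1b, Abca8a, Abcg4, Abcg2, Abcb10 and Abcd3. Groups did not overlap for 5 members that were higher and 5 that were lower in LPS, against 12.9% and 10.5% of all genes. With a single library left out, the calls of Abcb1b, Abcg5 and Abca8a held in 8 of 8 fits, those of Abcg2 and Abcg4 in 5 of 8, and those of Abca4, Abcb10, Abcd3 and Abcc1 in 2, 2, 2 and 1. The number lower was 2 without LPS replicate 3, and 3 without PBS replicate 3 or LPS replicate 4. Under limma-voom 1 was higher and 5 were lower, against 8.87% and 7.35% of all genes, or 16.2% in either direction. Under DESeq2 6 were higher and 8 lower, against 13% and 13% of all genes.

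**Figure D1:**
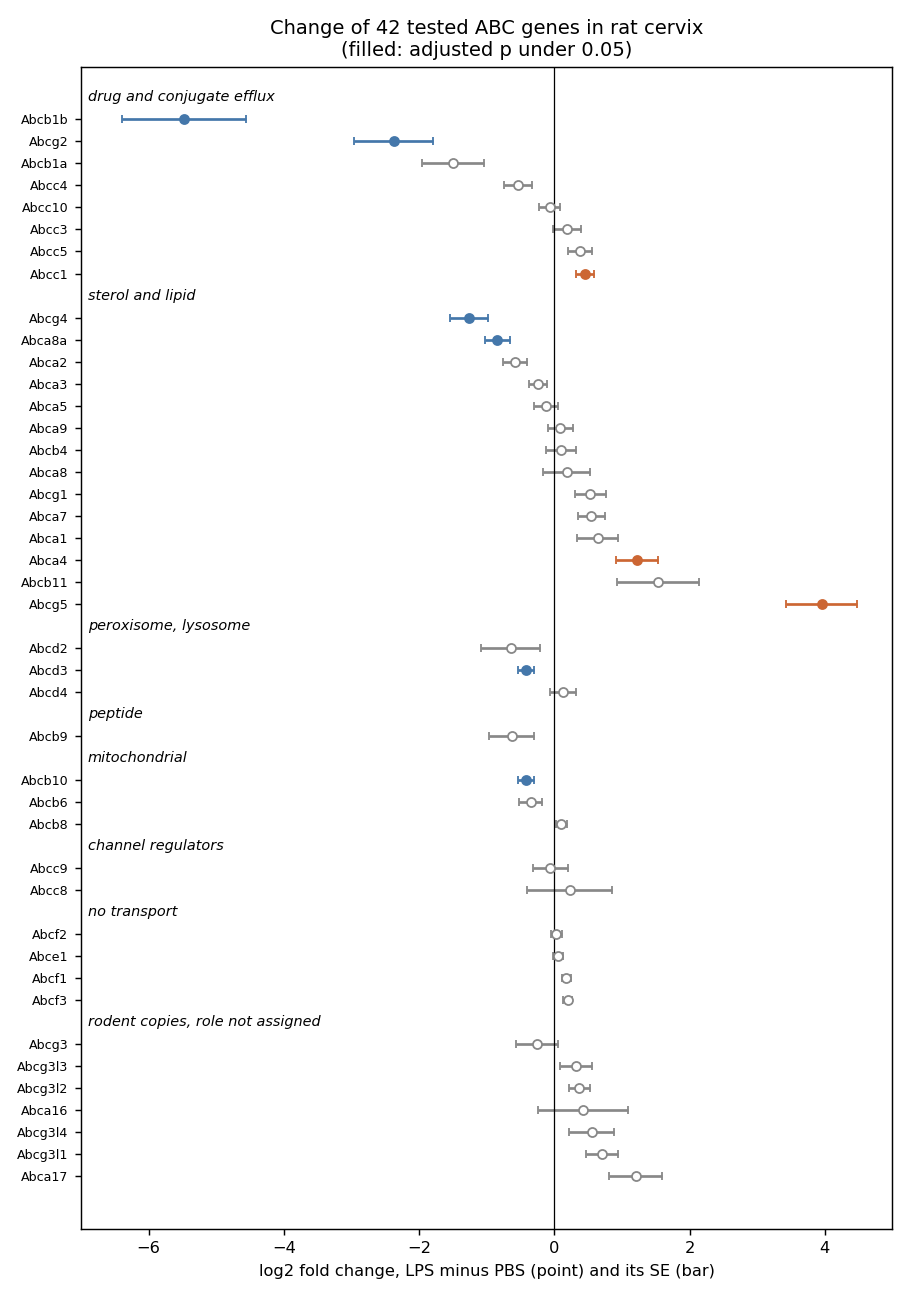
Log2 fold change (LPS minus PBS, horizontal axis) of 42 tested ABC genes, grouped by role, with bars of 1 SE. Filled points passed the threshold, and Abcb1b (-5.48) and Abcg5 (3.95) lie at the ends of the range.

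Promoter windows are printed to show how far the Abcb1 copies match around their starts, and that Abcg5 and Abcg8 start from the same stretch of DNA. RefSeq windows (build GRCr8, 250 bases before to 50 after the start) were matched by symbol for 44 of the 54 members. The Abcb1 windows lie on the minus strand of chromosome 4, at chr4:26397599-26397898 for Abcb1a and chr4:26279980-26280279 for Abcb1b. Capitals mark stretches of at least 10 bases that occur in both, 40 bases in each window.
Abcb1a: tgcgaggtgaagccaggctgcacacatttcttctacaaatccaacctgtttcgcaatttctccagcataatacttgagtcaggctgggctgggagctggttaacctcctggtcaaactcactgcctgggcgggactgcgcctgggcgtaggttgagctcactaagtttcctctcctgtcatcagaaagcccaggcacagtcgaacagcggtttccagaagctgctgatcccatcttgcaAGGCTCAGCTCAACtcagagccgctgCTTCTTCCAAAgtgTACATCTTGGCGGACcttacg
Abcb1b: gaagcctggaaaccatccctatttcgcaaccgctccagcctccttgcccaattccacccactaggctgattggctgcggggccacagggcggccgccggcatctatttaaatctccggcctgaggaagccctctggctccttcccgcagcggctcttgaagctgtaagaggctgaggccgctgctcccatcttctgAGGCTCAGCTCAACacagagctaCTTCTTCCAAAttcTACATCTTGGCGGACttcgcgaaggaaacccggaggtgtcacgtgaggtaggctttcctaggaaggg
The longest shared stretch is 15 bases long and begins at position 30 after the Abcb1a start and at position -17, before the Abcb1b start. Most of the marked bases thus lie after the start in Abcb1a and before it in Abcb1b. On both strands, CCAAT occurred 2 times in the Abcb1b window and 0 times in that of Abcb1a, and it occurs in 37.7% of all windows. GGGCGG occurred 1 time in each (34.9% of windows), and CACGTG 1 time in Abcb1b and 0 times in Abcb1a (6.65% of windows). A match in letters is a description and not a binding site.

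The Abcg5 window lies on the plus strand at chr6:15717686-15717985. That of Abcg8 covers the same DNA on the minus strand, sharing 295 bases. Capitals mark the bases from one start to the other, which are 206 bases apart and point away from each other.
Abcg5: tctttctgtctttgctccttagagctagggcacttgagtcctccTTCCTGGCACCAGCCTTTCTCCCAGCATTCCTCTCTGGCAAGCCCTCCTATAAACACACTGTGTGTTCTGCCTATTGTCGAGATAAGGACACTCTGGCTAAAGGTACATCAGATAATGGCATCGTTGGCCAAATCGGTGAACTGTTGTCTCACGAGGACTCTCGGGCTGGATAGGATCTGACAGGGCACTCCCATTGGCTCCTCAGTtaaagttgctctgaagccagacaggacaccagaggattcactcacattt
Within it TATAAA occurred 1 time, as in 14.3% of all windows, and CCAAT 1 time.

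Among the drug and conjugate pumps, Abcb1b and Abcg2 fell and Abcc1 rose, while Abcb1a, Abcc3, Abcc4, Abcc5 and Abcc10 did not pass the test. Abcb1b exports a wide range of hydrophobic drugs and steroids. Its level was 1448, 342, 494 and 70.3 CPM in PBS replicates 1 to 4, and 20.3, 13.6, 13.7 and 5.18 CPM in LPS replicates 1 to 4. Every LPS library lay below every PBS library, although the PBS libraries themselves ranged over 20.6-fold. The log2 fold change was -5.48 (SE 0.92, adjusted p = 0.00605), or -4.52 without PBS replicate 1, which held the most.

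Abcb1a, its neighbour on the chromosome and close copy, had 26.7, 10.4, 13.4 and 4.89 CPM in PBS and 5.58, 6.35, 4.0 and 3.77 CPM in LPS. PBS replicate 4 lay among the LPS libraries and the others above them. The log2 fold change of -1.49 (SE 0.46) missed the threshold (adjusted p = 0.057). Without PBS replicate 1 it was -0.96 (edgeR adjusted p = 0.103). It passed without PBS replicate 4 (-1.78) and under DESeq2.

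The copies did not change alike. Abcb1b counts were 54.1, 32.8, 36.9 and 14.4 times those of Abcb1a in PBS, and 3.64, 2.14, 3.43 and 1.38 times in LPS. The log2 ratio was 4.96 ± 0.81 in PBS and 1.3 ± 0.65 in LPS (SD, n = 4 each), and the groups did not overlap. The difference of -3.66 (SE 0.52) had an exact two-sided permutation p of 0.0286, the smallest that 4 against 4 can give. The sources used here do not give the handling of reads that match both copies, and some reads of either may stand under the other. Their summed counts do not depend on how such reads were split, though reads counted for neither copy would be missing from the sum. That sum fell by 5.05 (SE 0.86, edgeR adjusted p = 0.00641), or by 4.11 without PBS replicate 1. Abcb4, the next gene on that chromosome and a phosphatidylcholine pump of the bile canaliculus, had a value of 0.10 (adjusted p = 0.784), with 2.66 ± 0.455 CPM in PBS and 2.86 ± 0.494 CPM in LPS.

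**Figure D2:**
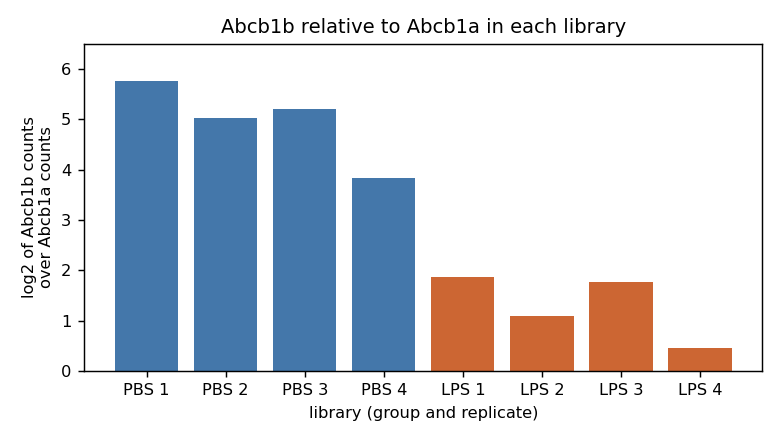
Log2 of the Abcb1b count over the Abcb1a count (vertical axis) in each library, 4 PBS and 4 LPS. The PBS bars stand between 3.84 and 5.76 and the LPS bars between 0.46 and 1.86. The ratio also depends on the lengths of the transcripts, so its difference between groups is what compares.

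Abcg2, the breast cancer resistance protein, exports drugs, porphyrins and urate. It had 69.9, 20.7, 25.4 and 7.82 CPM in PBS and 5.88, 8.11, 5.27 and 4.60 CPM in LPS. PBS replicate 4 lay just under LPS replicate 2, and the other PBS libraries were above all of LPS. Abcg2 fell by 2.38 (SE 0.58, adjusted p = 0.0269), or by 1.60 without PBS replicate 1. It was not called without LPS replicate 1, 3 or 4, nor by limma-voom.

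Abcc1, which exports glutathione conjugates and leukotriene C4, had 72.9, 73.1, 82.7 and 65.7 CPM in PBS and 107, 99.6, 78.1 and 118 CPM in LPS. LPS replicate 3 lay within the PBS range. The rise of 0.45 (SE 0.13) was just inside the threshold (adjusted p = 0.047) and was called in 1 of 8 fits with a library left out, the one without LPS replicate 3. Upper-quartile scaling and limma-voom did not call it.

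Abcc4, an exporter of cyclic nucleotides and prostaglandins, had 78.8, 44.0, 52.3 and 43.1 CPM in PBS and 41.8, 40.7, 37.7 and 30.1 CPM in LPS. The groups did not overlap, by a narrow margin, and the log2 fold change was -0.54 (SE 0.20, adjusted p = 0.103). Its relative Abcc5, which also carries cyclic nucleotides, had a value of 0.38 (adjusted p = 0.172), with 27.6 ± 6.63 CPM in PBS and 35.9 ± 5.49 CPM in LPS. It passed without PBS replicate 1. Abcc3, an organic anion pump, and Abcc10 had values of 0.18 and -0.07. Abcb5, Abcc2, Abcc6 and Abcc12 were below the filter, with at most 12 counts each over the 8 libraries.

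Several of these genes shared an order across the PBS libraries. Abcb1b, Abcb1a, Abcg2, Abcc4 and the sterol transporter Abcg4 were each highest in PBS replicate 1, then 3, then 2, and lowest in 4. Abcc5 had that order too, and in all 7 of 44 tested members did (15.9%), as did 7.87% of all tested genes. This order was looked for after the values were seen. A few of the summed gene lists had the order, and most did not. The summed level of 11 endothelial markers, with 936, 712, 539 and 429 CPM in PBS replicates 1 to 4, did not have the order. The summed level of 12 T, NK and B cell markers had it, with 138, 88.5, 119 and 80.9 CPM in PBS replicates 1 to 4. That sum lay between 78.1 and 129 CPM in LPS. Tap1, Tap2 and the chloride channel Cftr, summed, had it too (111, 78.7, 83.3 and 76.5 CPM), and were higher in LPS. The summed level of 11 smooth muscle markers had the same order, with 12809, 10511, 11178 and 4638 CPM in PBS replicates 1 to 4. It lay between 3860 and 5633 CPM in LPS. In PBS replicate 4 that muscle level was within the LPS range, and so were Abcb1a, Abcg2 and Abcg4. Abcb1b at 70.3 CPM was above its highest LPS library at 20.3 CPM. Abcc4 at 43.1 CPM was narrowly above its highest LPS library at 41.8 CPM. Of those 11 muscle markers, 7 were called lower (63.6%, against 7.45% of all tested genes). For 1 of the 11 the groups did not overlap, against 10.5% of all tested genes that were lower without overlap. With a library left out the number called lower was 0 (LPS replicate 1), 1 (PBS replicate 2 or LPS replicate 3), 2 (PBS replicate 3), 3 (PBS replicate 1 or LPS replicate 2), 5 (LPS replicate 4) or 11 (PBS replicate 4).

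The summed epithelial marker levels had other orders across the PBS libraries than Abcb1b, and a sum does not show each marker of its list. The summed level of 18 columnar and glandular epithelium markers was lowest in PBS replicate 1, at 18881 CPM, and ran up to 31032 CPM in PBS replicate 3. In LPS it lay between 24406 and 25089 CPM, inside the PBS range. The summed squamous markers had 5116, 7403, 4913 and 9161 CPM in PBS replicates 1 to 4. They lay between 3178 and 4222 CPM in LPS, lower without overlap, which is the direction of Abcb1b. Of 8 tested squamous markers, 2 were called lower (25%, against 7.45% of all tested genes). The number was 1 with PBS replicate 2 or 4, or LPS replicate 1 or 4, left out. The part of the cell mixture in the changes of the efflux genes was not tested.

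**Figure D3:**
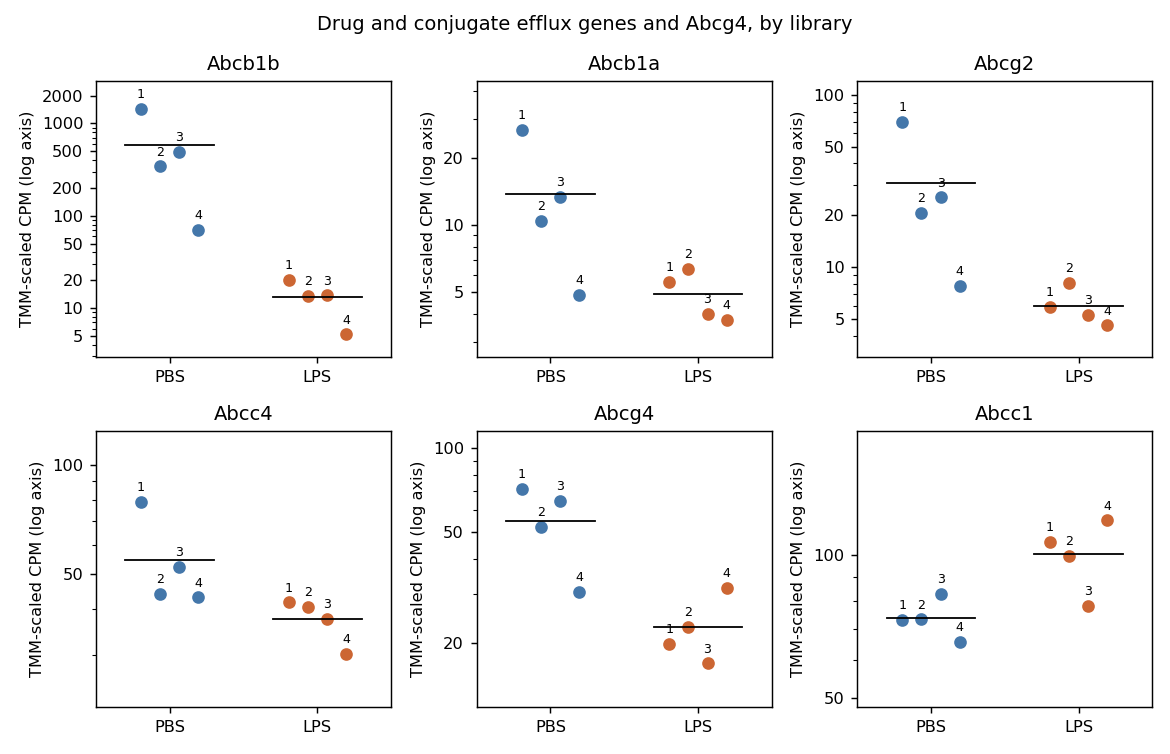
TMM-scaled CPM (log axis) of 5 drug or conjugate pumps and of Abcg4 in the PBS and LPS libraries, with replicate numbers beside the points and a line at each mean. In the PBS group replicate 1 is highest and replicate 4 lowest for Abcb1b, Abcb1a, Abcg2, Abcc4 and Abcg4, and Abcb1b is the gene among these with the widest gap between the groups.

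Of 14 tested sterol and lipid transporters, 2 rose (Abcg5 and Abca4), 2 fell (Abca8a and Abcg4) and 10 did not pass. That is 28.6% called in either direction, against 16.9% of all tested genes. Abcg5 had 0.383, 0.470, 1.08 and 0.809 CPM in PBS and 18.5, 12.5, 6.86 and 4.87 CPM in LPS. Each LPS library was above each PBS library, and the LPS libraries ranged over 3.80-fold. The rise of 3.95 (SE 0.52, adjusted p = 0.00235) was 15.5-fold on the linear scale and stayed between 3.55 and 4.27 with any 1 library left out.

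Its partner Abcg8 fell below the filter. It had 0, 1, 2 and 0 counts in PBS and 49, 9, 43 and 12 counts in LPS. The group totals were 3 and 113 counts, and the scaled ratio was 36.1. Its 95% counting interval of 12.1 to 178 leaves out the spread between libraries. With no filter on low counts it was called, at 4.97 (edgeR adjusted p = 0.00944). Both genes of the sterol exporter were higher in every LPS library than in any PBS library, and these are the genes whose starts share the window printed above. Any part of that shared stretch in the joint rise was not tested. In PBS Abcg8 was at or under the floor of 3 counts in each library, and Abcg5 was above it.

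Abca1, which loads cholesterol onto apolipoprotein A-I, had 41.3, 82.4, 67.0 and 43.7 CPM in PBS and 80.7, 64.9, 146 and 75.0 CPM in LPS. The groups overlapped, LPS replicate 3 stood highest, and the value of 0.64 (SE 0.31) did not pass (adjusted p = 0.184). Abcg1, which passes cholesterol to high-density lipoprotein, had a value of 0.53 (SE 0.23, adjusted p = 0.145), with 65.3 ± 20.7 CPM in PBS and 94.3 ± 15.6 CPM in LPS. It passed without PBS replicate 3.

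Of 17 tested genes of sterol efflux and the liver X receptors, 5 rose and 1 fell (35.3% called, against 16.9%). The number that rose was 3 with replicate 1 or 2 of either group left out. The receptor Nr1h3 (LXR alpha), which switches on Abca1, Abcg1, Abcg5 and Abcg8 in liver and macrophages, rose from 11.5 ± 3.17 to 24.0 ± 3.50 CPM (1.06, SE 0.20, adjusted p = 0.0104). Lpcat3, a lysophospholipid acyltransferase and another target of that receptor, rose from 41.8 ± 4.77 to 73.3 ± 5.0 CPM (0.81, adjusted p = 0.00154). The gene that fell was Srebf1, a further target, named after its value was seen (-0.68, adjusted p = 0.0366), and it did not pass with PBS replicate 2 or 4, or LPS replicate 1, 2 or 4, left out. Of 11 tested macrophage and monocyte markers 9 rose (81.8%, against 9.49% of all tested genes), or 6 without PBS replicate 2. Their summed level was 668 to 911 CPM in PBS and 1495 to 2177 CPM in LPS. Of 8 tested neutrophil markers 8 rose (100%, against 9.49% of all tested genes), or 5 without PBS replicate 2. The summed neutrophil level was 37.6 to 73.2 CPM in PBS and 446 to 1749 CPM in LPS. The part of both cell types in these values was not tested.

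Abcg4, a sterol exporter known from neurons and glia, had 71.7, 52.2, 64.9 and 30.5 CPM in PBS and 19.9, 22.8, 16.9 and 31.6 CPM in LPS. PBS replicate 4 and LPS replicate 4 overlapped, and the other libraries were apart. It fell by 1.26 (SE 0.28, adjusted p = 0.0187), and did not pass with PBS replicate 3, LPS replicate 1 or LPS replicate 3 left out. The summed level of 12 nerve and Schwann cell markers was 314 to 431 CPM in PBS and 163 to 308 CPM in LPS. Of the 12, 2 were called lower (16.7%), against 7.45% of all tested genes called lower and 16.9% called in either direction. The number was 1 without any one of PBS replicates 1 to 4 or LPS replicates 3 and 4. The part of nerve and Schwann cells in the fall of Abcg4 was not tested.

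Abca8a, a transporter of the subfamily A cluster for lipids and organic anions, had 37.1, 53.8, 50.4 and 63.0 CPM in PBS and 30.4, 25.7, 23.3 and 34.6 CPM in LPS. The groups did not overlap, and the order of the PBS libraries was not that of Abcb1b, with PBS replicate 1 lowest. It fell by 0.84 (SE 0.18, adjusted p = 0.0152), and by 0.73 to 0.97 with a library left out. Its neighbours on the chromosome, Abca8 and Abca9, had values of 0.19 (adjusted p = 0.753) and 0.09 (adjusted p = 0.771), and these changed sign without LPS replicate 2. Abca5, in the same cluster, had -0.12, and Abca6 had 19 counts in all. Reads shared within that cluster may be split between its genes.

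Abca4 turns over retinoid conjugates in photoreceptors. Its level was 3.09, 3.99, 3.23 and 3.39 CPM in PBS and 10.4, 5.32, 11.6 and 4.74 CPM in LPS. LPS replicates 1 and 3 were well above LPS replicates 2 and 4, and all were above PBS. Abca4 rose by 1.23 (SE 0.31, adjusted p = 0.0294). It passed with LPS replicate 2 or 4 left out, but with no other single library left out, and not under limma-voom.

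Abca2, a lipid transporter of endosomes and lysosomes, had 111, 165, 145 and 144 CPM in PBS and 104, 111, 67.0 and 93.8 CPM in LPS. PBS replicate 1 lay at the LPS level. The value of -0.58 (SE 0.17) missed the threshold narrowly (adjusted p = 0.0525) and passed without PBS replicate 1 or LPS replicate 2, with RLE scaling, with the stricter filter and under DESeq2. Abca3, known for surfactant lipids of the lung, had -0.24 (adjusted p = 0.242). Abca7, a phospholipid exporter linked to phagocytosis, had 0.54 (adjusted p = 0.098) and passed without LPS replicate 1. The bile salt pump Abcb11 had 27 counts in PBS and 81 in LPS (1.53, SE 0.60, adjusted p = 0.117). Abca12 and Abca13 were below the filter, with 4 and 48 counts.

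**Figure D4:**
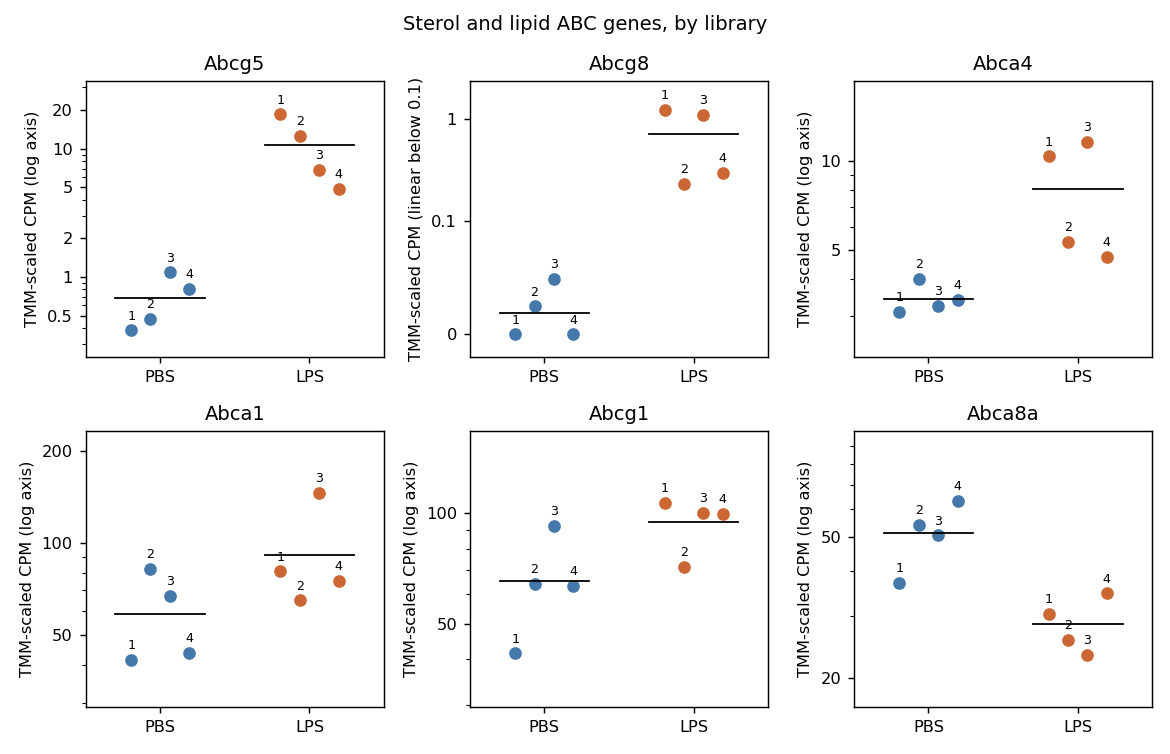
TMM-scaled CPM of 6 sterol and lipid transporters in each library (log axes, except that Abcg8 is linear below 0.1), with replicate numbers and a line at each group mean. Abcg5, Abcg8 and Abca4 are higher in every LPS library, Abca8a is lower in every LPS library, and the groups overlap for Abca1 and Abcg1.

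Abcb9, a lysosomal peptide transporter and the peptide pump whose symbol fits the family's pattern, had 2.68, 3.19, 2.59 and 1.41 CPM in PBS and 1.83, 1.87, 0.962 and 1.71 CPM in LPS. PBS replicate 4 lay within the LPS range, and the value of -0.63 (SE 0.33) did not pass (adjusted p = 0.219). Tap1 and Tap2, its relatives in the endoplasmic reticulum that feed peptides to class I histocompatibility molecules, rose. Tap1 had 49.7, 36.8, 38.5 and 35.4 CPM in PBS and 154, 90.6, 134 and 95.8 CPM in LPS (1.56, SE 0.19, adjusted p = 0.00184). Tap2 rose from 45.1 ± 10.1 to 95.6 ± 19.0 CPM (1.08, SE 0.18, adjusted p = 0.00638). Neither gene's groups overlapped, and LPS replicates 1 and 3 held the most of each. All 9 genes of the peptide loading list, which includes Tap1, rose, against 9.49% of all tested genes. The number was 8 without PBS replicate 2. The median over the list was 0.97, and Tapbpl, a relative of tapasin, was among the 9 (0.97, adjusted p = 0.00159). Cftr, the chloride channel of the ABC superfamily, had 2.23 ± 0.944 CPM in PBS and 7.70 ± 4.87 CPM in LPS. Its value of 1.79 missed the threshold (adjusted p = 0.0569) and passed without LPS replicate 4, which held 2.01 CPM, and under DESeq2.

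Of the 4 mitochondrial members, Abcb10 fell and the others did not pass. Abcb10, an inner membrane transporter needed for haem synthesis in red cell precursors, had 23.2, 27.2, 30.2 and 26.0 CPM in PBS and 22.8, 20.7, 16.4 and 19.7 CPM in LPS. The groups did not overlap, with PBS replicate 1 and LPS replicate 1 nearly at the same level. The fall of 0.42 (SE 0.12) was just inside the threshold (adjusted p = 0.0462) and was called in 2 of 8 fits with a library left out, those without PBS replicate 1 and without LPS replicate 1. The summed level of 10 red cell markers was 703 to 2194 CPM in PBS and 115 to 645 CPM in LPS. In PBS it was lowest in replicate 3, which held the most Abcb10. Of 8 tested red cell markers, 6 were called lower (75%, against 7.45% of all tested genes). The number was 0 without PBS replicate 2, 1 without LPS replicate 1 or 4, and 3 to 6 without any other library. The part of red cells in the fall of Abcb10 was not tested.

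Abcb6, which carries porphyrins, had -0.35 (adjusted p = 0.197), and Abcb8 had 0.10 (adjusted p = 0.427). Abcb8 had 34.1, 31.0, 27.8 and 30.5 CPM in PBS and 34.8, 33.8, 33.0 and 30.9 CPM in LPS, so that its groups overlapped. Of 20 listed genes of haem and iron-sulfur synthesis, 2 rose and 1 fell (15% called, near the 16.9% of all genes). Alas2, the haem enzyme of red cell precursors, fell from 17.7 ± 7.86 to 3.43 ± 2.33 CPM (-2.37, adjusted p = 0.0234), and did not pass with PBS replicate 2, LPS replicate 1 or LPS replicate 4 left out. With a library left out, 0 of the list rose (PBS replicate 2 or 3 or LPS replicate 4) to 2, and 0 fell with PBS replicate 2 or LPS replicate 1 or 4 left out.

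Abcd3, which brings fatty acids and bile acid precursors into peroxisomes, had 96.1, 94.3, 95.8 and 98.9 CPM in PBS and 83.6, 83.2, 61.1 and 60.6 CPM in LPS. PBS libraries lay within 1.05-fold of each other, and LPS replicates 3 and 4 were well below LPS replicates 1 and 2. The fall of 0.42 (SE 0.12, adjusted p = 0.0488) was called in 2 of 8 fits with a library left out, those without LPS replicate 1 and without LPS replicate 2. Abcd2, a peroxisomal fatty acid transporter, and the lysosomal cobalamin transporter Abcd4 had -0.65 (adjusted p = 0.34) and 0.13 (adjusted p = 0.693). Of 22 listed genes of peroxisomal oxidation and assembly, 2 fell and the others did not pass (9.09% called, against 16.9%). With a library left out the number that fell was 0 to 1. Among them Acox2, an oxidase of branched fatty acids and bile acid precursors, had -3.35 (adjusted p = 0.0427) and passed with PBS replicate 4 or LPS replicate 2 left out, but with no other, and not under limma-voom.

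**Figure D5:**
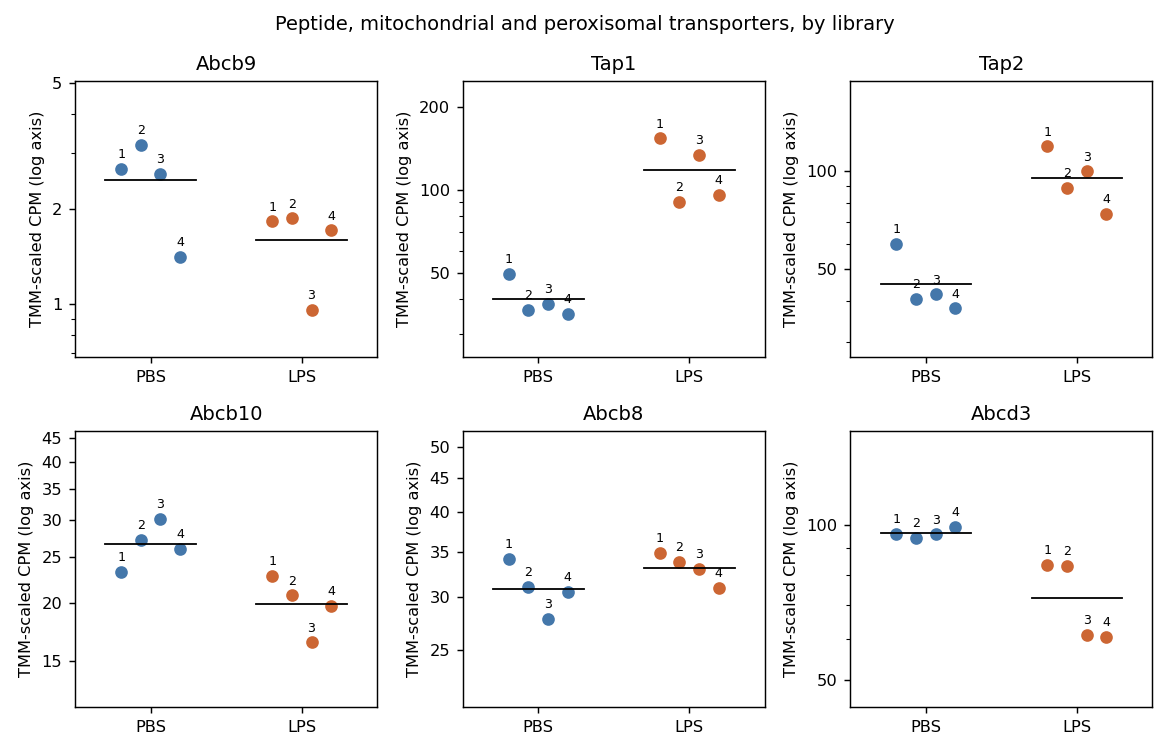
TMM-scaled CPM (log axes) of peptide (Abcb9, Tap1, Tap2), mitochondrial (Abcb10, Abcb8) and peroxisomal (Abcd3) transporters in each library, with replicate numbers and a line at each group mean. Tap1 and Tap2 are higher in every LPS library, Abcb10 and Abcd3 are lower in every LPS library, and the groups overlap for Abcb9 and Abcb8.

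Neither sulfonylurea receptor passed. Abcc9, the regulatory subunit of the potassium channel of vascular smooth muscle, had 62.4, 44.6, 40.0 and 24.2 CPM in PBS and 47.0, 39.2, 46.6 and 31.5 CPM in LPS. The groups overlapped throughout (-0.06, SE 0.26, adjusted p = 0.901), and the sign changed without PBS replicate 1 or LPS replicate 4. Abcc8, known from the pancreatic beta cell, had 32 counts in PBS and 40 in LPS (0.23, SE 0.63).

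The members that carry nothing across a membrane varied little. Abce1, which splits ribosomes after termination, had 103, 97.2, 98.8 and 99.1 CPM in PBS and 94.6, 102, 109 and 108 CPM in LPS. Its value was 0.05 (SE 0.07, adjusted p = 0.65). Abcf1, Abcf2 and Abcf3, which act in translation and its control, had 0.17 (adjusted p = 0.113), 0.03 (adjusted p = 0.831) and 0.20 (adjusted p = 0.081). Of these 4 genes 0 passed under edgeR, 2 had an unadjusted p under 0.05 and 1 passed under DESeq2, against 16.9%, 32.6% and 26% of all tested genes. The groups did not overlap for Abcf1 and Abcf3, whose lower PBS means were 73.0 ± 2.75 and 43.7 ± 1.70 CPM. The call by DESeq2 was Abcf3. Within PBS the highest library exceeded the lowest by 1.06-fold to 1.09-fold for these 4 genes, against a median of 1.66-fold over the 44 tested members and 1.38-fold over all tested genes.

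Rodent copies with no role assigned here gave 0 calls of 7 tested under edgeR, 3 with an unadjusted p under 0.05, and 2 calls under DESeq2. Of all tested genes 32.6% had such an unadjusted p and 26% were called by DESeq2, so these counts are near the shares over all genes. Abcg3l1, a copy on the same chromosome as Abcg3, had 4.0 ± 0.933 CPM in PBS and 6.53 ± 1.52 CPM in LPS without overlap. Its value was 0.71 (edgeR adjusted p = 0.0744), and DESeq2 called it. Abcg3l2, Abcg3l3 and Abcg3l4 had 0.37, 0.32 and 0.55, and Abcg3 had -0.26. Abcg3l3 had 13.7, 9.01, 12.6 and 13.2 CPM in PBS and 17.6, 12.9, 9.90 and 20.1 CPM in LPS, which overlap. Reads may be split among these copies. Abca17 had 1.20 (adjusted p = 0.0696) with 98 counts in PBS and 235 in LPS, and passed without LPS replicate 4 and under DESeq2. Abca16 had 129 and 177 counts, and Abca14 and Abca15 had 0.

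Other genes that handle drugs and conjugates were read from lists. Of 12 tested organic anion and cation carriers, 1 rose and 2 fell. That is 25% called, against 16.9% of all tested genes, and with so few genes the count says nothing about the carriers as a group. Slco4a1, an uptake carrier for thyroid hormone and other organic anions, had 204, 86.3, 68.0 and 43.2 CPM in PBS and 23.3, 19.6, 27.6 and 13.9 CPM in LPS. The groups did not overlap, PBS replicate 1 was highest and replicate 4 lowest as for Abcb1b, and Slco4a1 fell by 2.25 (SE 0.46, adjusted p = 0.0138). Without PBS replicate 1 the value was -1.64. Slc22a5, the carnitine carrier, fell by 0.65 (adjusted p = 0.0211), and did not pass with PBS replicate 2 or LPS replicate 3 left out. Their list had 0 that rose with PBS replicate 2 or 3 or LPS replicate 1, 2 or 3 left out, and 1 that fell with PBS replicate 2 or LPS replicate 3 left out.

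Of 20 tested genes of glutathione conjugation and related detoxification, 2 rose and 3 fell (25% called, against 16.9% of all genes). Gstm2, a glutathione transferase, fell from 179 ± 10.9 to 106 ± 23.4 CPM (-0.76, adjusted p = 0.0152). The microsomal transferase Mgst1 rose by 0.55 (adjusted p = 0.0206), and did not pass with PBS replicate 2 or 3 left out. With PBS replicate 2 left out 0 of the list rose and 1 fell, 1 rose with PBS replicate 3 or LPS replicate 1 left out, 1 fell with PBS replicate 4 or LPS replicate 2 left out, and 2 fell with any other library left out. Of 14 tested regulators of drug transporters, 1 rose and 2 fell (21.4% called, against 16.9%). Pparg fell by 1.53 (adjusted p = 0.0214), and did not pass with PBS replicate 2, LPS replicate 2 or LPS replicate 3 left out. The gene that also fell was the progesterone receptor Pgr, named after its value was seen, with 112 ± 5.2 CPM in PBS and 72.2 ± 19.9 CPM in LPS (-0.63, adjusted p = 0.037). It passed with LPS replicate 2 left out and with no other single library left out. With a library left out 1 to 2 of the list rose (2 with LPS replicate 3 or 4 left out), and 0 fell with PBS replicate 2 or LPS replicate 3 left out and 1 with any other.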

How the data were processed

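The table deposited by the authors holds unnormalized counts by gene symbol for 8 cervix libraries. Build mRatBN7.2, HISAT2, HTSeq, fastp and R 3.2.0 are listed, per the submitters' processing notes, with no roles. The sources used here do not give the annotation or the strand setting, and reads of overlapping genes or close copies may stand under either. The series' design text calls the libraries biological replicates. Columns were matched by library name, and LPS replicate 4 carries the number 5 there.

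The members and lists were chosen with earlier results of these data known. Genes were kept by filterByExpr by group, scaled by TMM, and compared with edgeR 4.0.16 (R 4.3.3) by robust quasi-likelihood F tests with no covariate. Adjusted p-values are Benjamini-Hochberg over 16117 genes. SE is the size of the log2 fold change divided by the square root of F. The Abcb1b to Abcb1a ratio used a pseudocount of 0.5 and an exact permutation test. Named were the Abcb1 pair, every called member, the uncalled member with the highest mean CPM of each role, Tap1, Tap2, Cftr, and the 2 called genes with the lowest adjusted p of each pathway list. Other members were named after their values were seen. A few genes that this rule takes in are not reported here. DESeq2 1.42.0 and limma-voom 3.58.1 were among the alternatives. The fit was tested on simulated data. Pairs of libraries within a group were further apart than counting noise (chi-square per degree of freedom at least 57.5). Counting intervals cover counting error only.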

Additional observations from a re-analysis of the deposited data

How the results depend on the processing

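The fit was repeated with DESeq2, with limma-voom, with 2 other scalings (upper-quartile, RLE), unfiltered, with 1 CPM required in 4 libraries, with the replicate number as a block and with each library left out. Abcb1b, Abcg5 and Abca8a were called under all of these. The number of genes called was 2729, 4188 under DESeq2 and 1467 to 2584 with a library left out (1467 without PBS replicate 2). The number of ABC genes higher was 3, 6 under DESeq2, 1 under limma-voom and 2 to 3 with a library left out. The number lower was 6, and 2 to 6 with a library left out. With the replicate block 1 was higher and 2 lower, 1996 genes were called, and the Abcb1b to Abcb1a difference of -3.66 had an exact sign-flip p of 0.125, the smallest that 4 pairs can give. Deviations of same-numbered libraries from their group means had correlations of -0.10 to 0.24. Replicate 4 had the highest, and only there was the same-numbered library the best match. With 4 libraries per group, these values cannot tell whether the numbers mark a pairing or a batch. The Abcb1b to Abcb1a difference was -4.03 to -3.38 with a library left out, and with pseudocounts of 5 and 0.05 it was -3.66. The sum of the pair was -5.43 to -4.11. Abcc9 lay between -0.26 and 0.17 with a library left out, turning positive without PBS replicate 1 (0.17) or LPS replicate 4 (0.05). Of alternatives added after seeing the data, leaving out PBS replicate 1 and LPS replicate 2 gave 2 ABC genes higher and 4 lower, 2010 genes called and 0.20 for Abcc9. Leaving out PBS replicates 1 and 4 gave 1 higher and 5 lower, and 1259 genes called. The cause of these shifts was not tested. Abcg8 and 9 other members had too few counts to test.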
